A study of Homo sapiens and Mus musculus with 66 samples.

Results

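The genes described here are 10 markers of the intestinal epithelium, chosen by name: LGR5, CDX1, CDX2, VIL1, MUC2, CDH17, CDH1, GPA33, EPCAM and CEACAM5. All 10 were found among the 20162 protein-coding genes that GENCODE places on chromosomes 1 to 22, X and Y of hg19. What was measured for each was the position of its gene body against regions called at or near the nuclear lamina (NL), the protein meshwork under the nuclear envelope. The value given is the distance from the gene body to the nearest called region, and it is 0 where at least 1 bp of the gene lies inside a region.

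The epithelium of the gut is renewed from stem cells at the base of the crypts, whose daughters become absorptive enterocytes, mucus-secreting goblet cells and other types. CDX1 and CDX2 are homeobox transcription factors that set intestinal identity, and genes of brush border, mucus and cell adhesion are among those they are known to act on. Chromatin at the NL is in general gene-poor and little transcribed, and the set of genes found there differs between cell types.

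Lamin-B1 cTSA-seq labels proteins and DNA near lamin-B1 with biotin, pulls the labeled chromatin down with streptavidin beads, and compares it with input chromatin. It was done in HCT116, a human colorectal carcinoma line, and in K562, a human leukemia line with erythroid features. The HCT116 groups were asynchronous bulk cells, asynchronous cells sorted by DNA content into G1, S and G2, and cells blocked with nocodazole for 16 h (per the labels; the study's methods give another time), shaken off, released for 90 or 180 min and sorted for G1 (90m G1 and 180m G1). K562 cells were untreated and asynchronous. Each of these groups holds 2 pull-down and 2 input samples, but each was deposited as 1 list of regions merged over replicates, in windows of 100 kb. A gene outside a list was not in the reproducibly called strong state; it may still have had intermediate signal, which the lists leave out. Each line is 1 cancer cell line, and its expression of these markers was not analysed here, so the labeled cell types were not checked against markers. A further list, K562 nonLAD, holds regions that cTSA-seq and published TSA-seq both found depleted. The lists used hold no signal, no read count and no replicate, so depth is unknown and values come with no error.

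In the HCT116 bulk list, none of the 10 genes overlapped a called region, against 12.4% of all protein-coding genes. The K562 cTSA-seq list gave the same count, 0 of 10, against 12.6%. At 90m G1, 3 of the 10 lay inside a region, against 17.7% of all genes: CDX1, VIL1 and MUC2, each over 100% of its length. None of the 10 did at 180m G1 (6.15% of all genes), in G1 (5.76%), in S (6.48%) or in G2 (5.38%). With 10 genes these backgrounds correspond to about 1 gene or fewer, so a count of 0 lies near the background in each of these lists.

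In K562 cells, 5 of the 10 lay whole inside a nonLAD region, against 56.2% of all genes: CDX1, VIL1, MUC2, CDH1 and EPCAM. CDX2, GPA33 and CEACAM5 lay 56.5, 64.3 and 65.6 kb from one, which is less than 1 window. Within 100 kb the count was thus 8 of 10, against 59.0% of all genes. CDH17, at 270.5 kb, and LGR5, at 13.5 Mb, were the remaining members.

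The plot of distances by gene shows these values for the 8 lists.

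**Figure D1:**
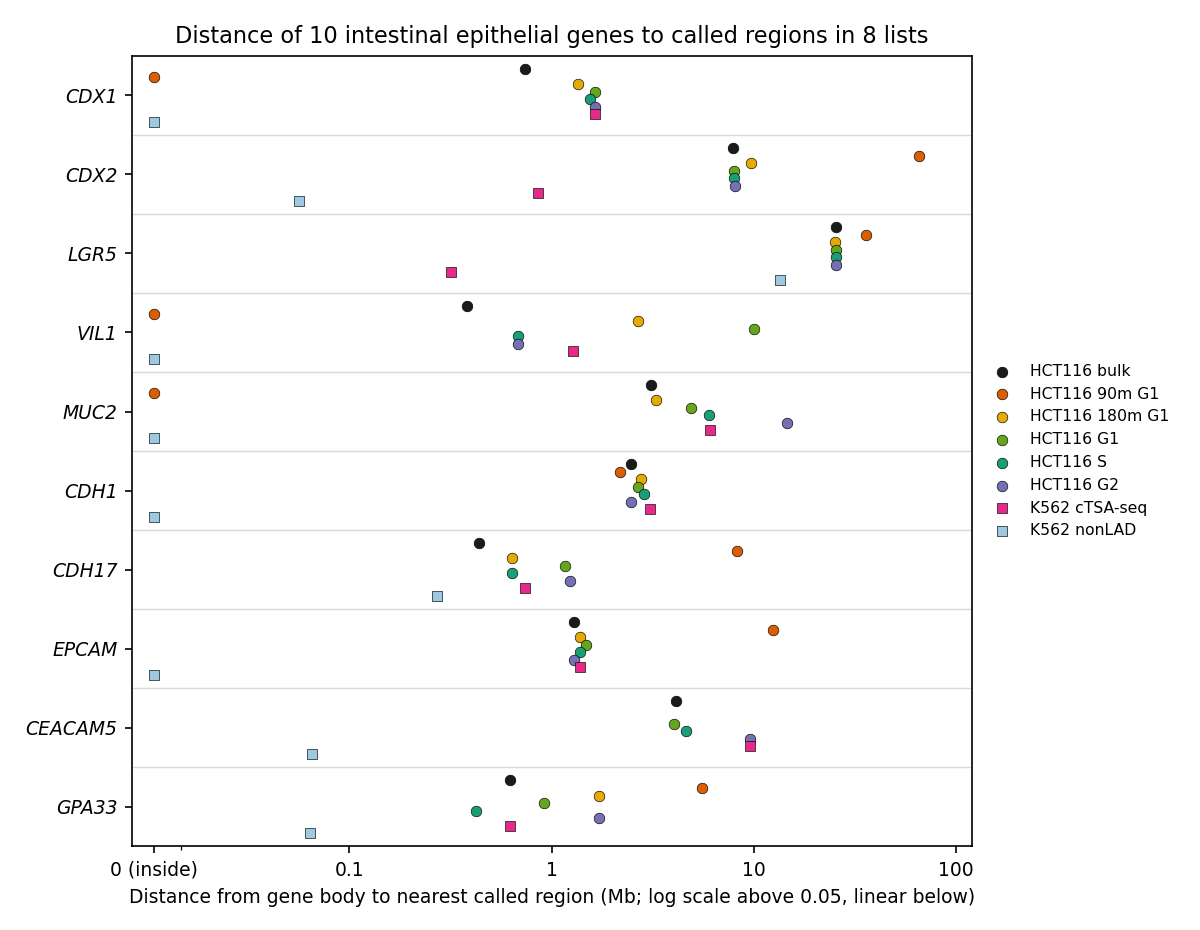
Distance in Mb (x axis, logarithmic, and linear close to 0) from each of the 10 gene bodies (rows) to the nearest region in 8 lists; circles are HCT116 lists and squares K562 lists, 1 point per list, with no error since each list is merged. The points at 0 are CDX1, VIL1 and MUC2 at 90m G1 and 5 genes in the K562 nonLAD list; CEACAM5 has no point for 90m G1 and 180m G1, which hold no region on chromosome 19.

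Over the 8 lists the 10 genes fell into 3 patterns. LGR5, CDX2, CDH17, GPA33 and CEACAM5 overlapped no region of any list, a pattern shared by 22.5% of protein-coding genes. CDH1 and EPCAM overlapped the K562 nonLAD list only, as did 45.3% of all genes. CDX1, VIL1 and MUC2 overlapped the 90m G1 list and the K562 nonLAD list and nothing else, a pattern of 8.54% of all genes.

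CDX1 (ENSG00000113722, chr5:149546341-149564121, plus strand) lay 0.736 Mb from the nearest region in HCT116 bulk cells. At 90m G1 it lay inside a region. At 180m G1 the distance was 1.35 Mb, in G1 and G2 it was 1.64 Mb, and in S it was 1.55 Mb. K562 cTSA-seq also gave 1.64 Mb, from a region that overlapped the nearest one of HCT116 bulk cells over 2.1 Mb. CDX1 thus sat between called regions in 6 of the 7 lamina lists, and only the 90m G1 region ran across it.

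CDX2 (ENSG00000165556, chr13:28535055-28543452, minus strand) stood far from any called region in HCT116 cells. The distance was 7.86 Mb in bulk cells, 7.96 Mb in G1 and S, 8.06 Mb in G2 and 9.66 Mb at 180m G1. At 90m G1 it was 65.9 Mb, since the 90m G1 list leaves the first 94.4 Mb of chromosome 13 without a region. In K562 cells it was 0.857 Mb by cTSA-seq, from a region (chr13:29400001-29900000) that is among those found by cTSA-seq only. The published TSA-seq list of K562 gave 5.96 Mb. The shorter distance in K562 cells held in both K562 lists, but its size depended on the method.

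The CDX proteins are known to bind AT-rich sites with the core TTTAT. This core, or ATAAA on the other strand, was searched in the 250 bases before each GENCODE gene start in hg19, where it can coincide with letters of a TATA box. It was found in 6 of the 10 genes and in 30.5% of 20140 protein-coding genes with complete sequence. The core holds only A and T, and median GC of these bases was 55.6% in the 10 genes against 59.6% over all genes. The count was not adjusted for composition, whose part in it was not tested. Matches were 3 in CDH17, 2 each in CDX2 and GPA33, and 1 each in CDX1, MUC2 and CEACAM5, and LGR5, VIL1, CDH1 and EPCAM had none in this window. The 30 bases around the match nearest to the gene start are shown for CDX2 itself and for both genes with a match that lay inside a 90m G1 region. They are written 5′ to 3′ on the gene's strand, with the core in capitals.
CDX1 (chr5:149546300-149546329, plus strand): cggcccggagctATAAAaggcctgggtggg
MUC2 (chr11:1074687-1074716, plus strand): acccagggagccATAAAgagatgacctccg
CDX2 (chr13:28543555-28543584, minus strand): gcctccctccccTTTATcttttaaaatgca
The last base of the match lay 25 bases before the gene start in CDX1, 172 in MUC2 and 116 in CDX2. In CDX1 the letters around the match read tATAAAag, which are also those of a TATA box. The regions called at 100 kb cannot place anything within such a window.

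The same 250 bases differed in composition among the 10 genes. CDX1 had 72.4% GC and 27 CpG, CDH1 had 68.8% and 18, and LGR5 had 66.8% and 22, against medians of 59.6% GC and 14 CpG over all genes. The other 7 had 45.2% to 60% GC and 2 to 10 CpG. Genes on either side of this divide occurred among those inside and outside 90m G1 regions: CDX1 was CpG-rich, while VIL1 held 2 CpG and MUC2 held 7.

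LGR5 (ENSG00000139292, chr12:71833578-71980090, plus strand), a receptor for R-spondins that marks crypt stem cells, had the largest distance of the 10 in HCT116 bulk cells. The distance was 25.4 Mb in bulk cells, S and G2, 25.3 Mb at 180m G1, 25.5 Mb in G1 and 35.7 Mb at 90m G1. In bulk cells 98.5% of protein-coding genes lay nearer to a region. In K562 cells the distance was 0.320 Mb by cTSA-seq and 0.420 Mb by TSA-seq. The HCT116 list of 1000000 cells gave 15.8 Mb, from a region on the other side of the gene. In each of these HCT116 lists LGR5 was thus over 15 Mb from a region, while K562 cells had one within a few windows of it.

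The stretch around LGR5 without a region in HCT116 bulk cells spanned chr12:38500001-97400000, or 58.9 Mb. It was the second longest of 460 such stretches. Within it, K562 cTSA-seq called 15 regions that covered 28.3 Mb, or 48.0% of it. LGR5 was also the gene with the lowest GC content around it, 37.6% in the 1 Mb centred on its start, a value below that of all but 6.13% of protein-coding genes. It was the only one of the 10 with a K562 cTSA-seq call inside that 1 Mb, over 3.36% of it. The maps around LGR5 and CDX2 place these calls side by side.

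**Figure D2:**
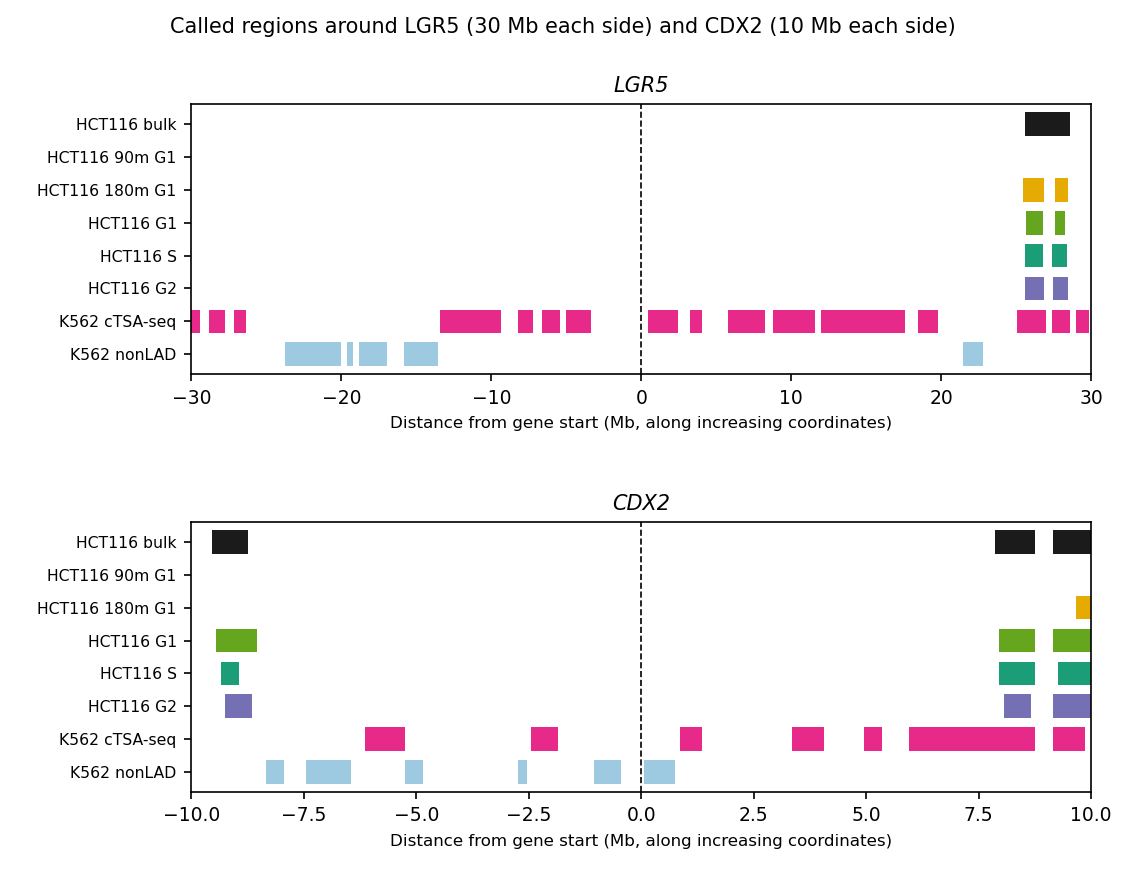
Called regions (bars, 1 row per list) against distance from the gene start in Mb along increasing coordinates, for 30 Mb on each side of LGR5 and 10 Mb on each side of CDX2; the dashed line is the gene start. HCT116 rows are empty for more than 25 Mb on both sides of LGR5, where the K562 cTSA-seq row holds a series of regions, and the nearest HCT116 regions flank CDX2 at about 8 to 10 Mb, apart from 90m G1, which has none in this range, and 180m G1, which has one on the right side only.

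VIL1 (ENSG00000127831, chr2:219283844-219318018, plus strand) encodes villin, which bundles actin in the microvilli of the brush border. It lay 0.384 Mb from a region in HCT116 bulk cells, the shortest distance of the 10. It was inside a region at 90m G1, 2.68 Mb away at 180m G1, 10.1 Mb away in G1, and 0.684 Mb away in S and G2. In K562 cells the distance was 1.28 Mb. VIL1 was also the only member with a bulk HCT116 call within the 1 Mb around its start, over 11.6% of it. The nearest region of bulk cells (chr2:217400001-218900000, 1.5 Mb) was called over 1 Mb in S and 0.9 Mb in G2. It was not called at 180m G1, in G1 or in K562 cells. Of the 7 lamina lists, 180m G1 and G1 were the 2 in which VIL1 was farthest from a region.

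MUC2 (ENSG00000198788, chr11:1074875-1104416, plus strand) encodes the gel-forming mucin of goblet cells and lay 1.07 Mb from the end of chromosome 11. The distance was 3.10 Mb in bulk cells, 0 at 90m G1 and 3.30 Mb at 180m G1. It was 4.90 Mb in G1, 5.996 Mb in S and 14.6 Mb in G2. K562 cTSA-seq gave 6.10 Mb and K562 TSA-seq 19.6 Mb. Of the 7 lamina lists only 90m G1 had a call within 3 Mb of MUC2, and in K562 cells the first 4.2 Mb of the chromosome, MUC2 included, were nonLAD.

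Among the adhesion genes, CDH1 (ENSG00000039068, chr16:68771195-68869440, plus strand), which encodes E-cadherin, had nearly equal distances in all 7 lamina lists. They were 2.47 Mb in bulk cells and G2, 2.17 Mb at 90m G1, 2.77 Mb at 180m G1, 2.67 Mb in G1, 2.87 Mb in S and 3.07 Mb in K562 cells. Apart from 90m G1, the nearest region was 1 of about 7 Mb that ended before the gene in each list. EPCAM (ENSG00000119888, chr2:47572297-47614740, plus strand), an epithelial adhesion molecule, had nearly equal distances in 6 of the 7 lists and a far larger one at 90m G1. Its distance was 1.29 Mb in bulk cells and G2, 1.39 Mb at 180m G1, in S and in K562 cells, 1.49 Mb in G1 and 12.5 Mb at 90m G1. Apart from 90m G1, the border nearest to the gene differed by a few windows between lists for both genes. The far border varied more than this for EPCAM and less for CDH1.

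CDH17 (ENSG00000079112, chr8:95139390-95229531, minus strand) encodes liver-intestine cadherin. It lay 0.439 Mb from a region in bulk cells, 0.639 Mb at 180m G1 and in S, 1.17 Mb in G1, 1.24 Mb in G2 and 8.24 Mb at 90m G1. K562 cTSA-seq gave 0.739 Mb. In the bulk list it sat in a stretch of 1.6 Mb between regions, the shortest such stretch of the 10 genes.

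CEACAM5 (ENSG00000105388, chr19:42212504-42234353, plus strand), the carcinoembryonic antigen, lay 4.11 Mb from a region in bulk cells, 4.01 Mb in G1, 4.61 Mb in S and 9.61 Mb in G2. K562 cTSA-seq gave 9.61 Mb as well, and TSA-seq 14.1 Mb. The 90m G1 and 180m G1 lists hold no region on chromosome 19. CEACAM5 had 31 protein-coding gene starts in the 1 Mb around it, the most of the 10.

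GPA33 (ENSG00000143167, chr1:167022073-167135716, minus strand) encodes a surface antigen of the gut epithelium. The distance was 0.622 Mb both in HCT116 bulk cells and by cTSA-seq in K562 cells, 0.922 Mb in G1, 0.422 Mb in S, 1.72 Mb at 180m G1 and in G2, and 5.52 Mb at 90m G1. The K562 region is among those found by cTSA-seq only, and K562 TSA-seq gave 2.52 Mb. The nearest region of bulk cells was small, 0.5 Mb, and lists differed in whether they called it.

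Since replicates were merged before deposit, the only spread at hand was that over HCT116 lists of asynchronous cells: bulk, 50000, 200000 and 1000000 cells. None of the 10 genes overlapped a region with 50000 cells (6.82% of all genes), 200000 cells (6.0%) or 1000000 cells (5.79%), nor in the K562 TSA-seq list (10.1%). Over those 4 lists VIL1 ranged from 0.384 to 9.18 Mb, MUC2 from 3.10 to 19.5 Mb and GPA33 from 0.622 to 2.52 Mb. CDH1 ranged from 2.47 to 2.57 Mb and EPCAM from 1.29 to 1.39 Mb. This range is no replicate error, since the lists also differ in cell number. The labels hold 1 pull-down sample of 1000000 cells, though that list is named as a consensus.

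Against that range, the K562 cTSA-seq distance lay inside it for 6 of the 10 genes. It was below the range for LGR5 (0.320 Mb against 15.8 to 25.4 Mb) and CDX2 (0.857 Mb against 7.86 to 8.06 Mb). It was above the range for CDH1 (3.07 Mb against 2.47 to 2.57 Mb) and CEACAM5 (9.61 Mb against 4.01 to 4.61 Mb). The excess for CDH1 was 5 windows, and the CEACAM5 value equalled that of HCT116 G2. Because neither the HCT116 bulk list nor the K562 cTSA-seq list called any of the 10, none differed in overlap between them, against 15.7% of all genes. By distance, LGR5 and CDX2 stood nearer to regions in K562 cells than in any of those HCT116 lists, and CDH1 and CEACAM5 farther. The lists differ in extent: K562 cTSA-seq held 664 regions over 1227 Mb and HCT116 bulk 443 over 834 Mb. The HCT116 lists by cell number covered 656 to 706 Mb, and 90m G1 held 204 regions over 527 Mb. Distances were not adjusted for this, and its part in the differences was not tested. No test was made, since each line has 1 merged list.

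Between 90m G1 and asynchronous G1, 3 of the 10 genes differed in overlap, against 19.0% of all genes, and all 3 were inside at 90m G1 and outside in G1. The same 3 were inside at 90m G1 and in none of bulk, 180m G1, G1, S and G2, as were 11.3% of all genes. These counts were above both backgrounds, but with 10 genes they describe CDX1, VIL1 and MUC2 and say nothing of the group. Of the 3578 protein-coding genes inside 90m G1 regions, 57.4% overlapped the K562 nonLAD list, close to the 56.2% of all protein-coding genes. Of the 2269 that were in none of those other HCT116 lists 75.9% did, as did all 3 of these genes. Those 2269 were selected to lie outside HCT116 lamina lists. The share among all genes outside those lists was not computed, so the 75.9% has no matching background.

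The 90m G1 regions around the 3 genes were large. CDX1 lay 0.546 Mb inside the border of a region of 25.5 Mb (chr5:149000001-174500000), the largest of that list, which held 128 whole protein-coding genes. HCT116 bulk calls covered 69.0% of it, 180m G1 calls 52.5%, G1 calls 53.3% and K562 calls 55.3%, all of them away from CDX1. Its 3 nearest neighbours in the region, SLC6A7 (a proline transporter), PDGFRB (a receptor for platelet-derived growth factor) and CAMK2A (a calmodulin-dependent kinase), shared its pattern: inside at 90m G1 and K562 nonLAD, outside the other 6 lists.

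VIL1 lay 1.98 Mb inside a 90m G1 region of 6.1 Mb (chr2:217300001-223400000) with 67 whole protein-coding genes. Bulk calls covered 24.6% of it, S calls 16.4%, G2 calls 14.8%, 180m G1 calls 3.28% and G1 calls none, while K562 cTSA-seq called 45.9%. USP37, a deubiquitinase whose gene body overlaps that of VIL1, CTDSP1, a phosphatase, and SLC11A1, a metal transporter of macrophages, were its nearest neighbours and had the same pattern over the 8 lists.

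The 90m G1 region of MUC2 (chr11:1-4700000) reached the chromosome end and held 111 whole protein-coding genes. Bulk calls covered 10.6% of it and 180m G1 calls 6.38%, and there was no call in it in G1, S, G2 or K562 cTSA-seq, while 89.4% of it was K562 nonLAD. Its nearest neighbours, the mucin genes MUC6 and MUC5AC and AP2A2, which encodes a subunit of a clathrin adaptor, again had the same pattern. In all 3 regions the nearest neighbours, most of them not intestinal markers, had the same calls as the member. Their 90m G1 call was fixed in advance, since they were chosen from inside the same region. The farthest, AP2A2, lay 62.6 kb from its member, less than 1 window of 100 kb. Shared calls in the other lists are therefore hardly separate observations.

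**Figure D3:**
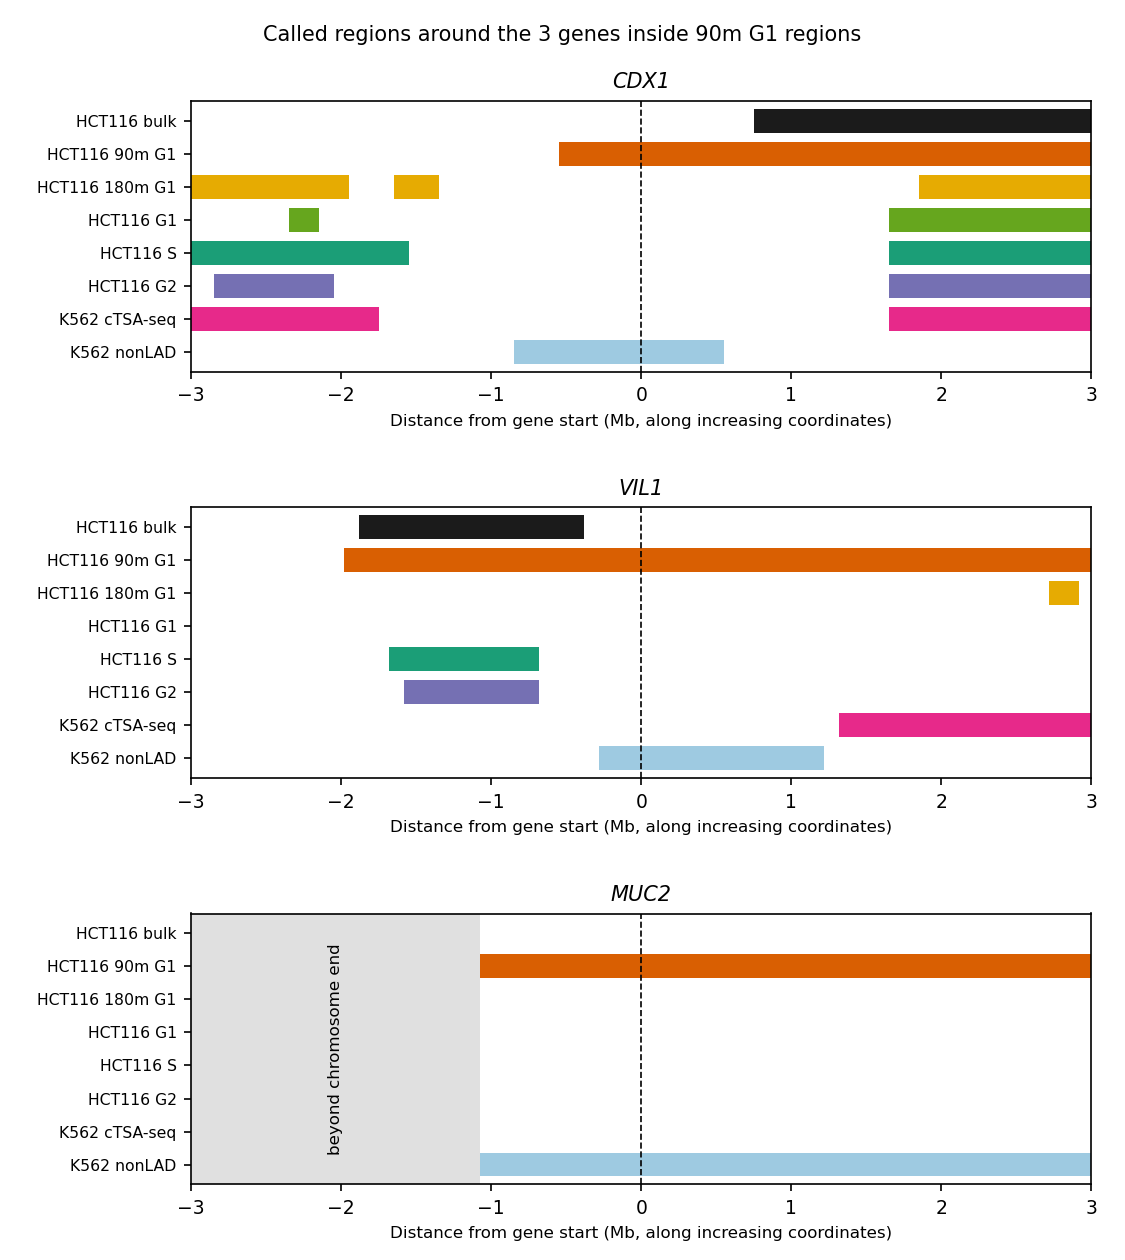
Called regions (bars, 1 row per list) within 3 Mb of the start of CDX1, VIL1 and MUC2, against distance from the gene start in Mb along increasing coordinates; the dashed line is the gene start and the gray block lies beyond the chromosome end. In each panel the 90m G1 bar and the K562 nonLAD bar cross the dashed line, and the other 6 rows do not.

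Position along the chromosome moved with the 90m G1 calls. Within 5 Mb of a chromosome end, 51.2% of protein-coding genes overlapped a 90m G1 region, as did 30.9% of those 5 to 20 Mb from an end, 11.0% at 20 to 40 Mb and 1.97% farther in. MUC2 was the only member in the first class and was inside a region, and CEACAM5 the only one in the second, on a chromosome with no 90m G1 region. CDX1, VIL1, CDX2 and CDH1 were in the third, with CDX1 and VIL1 inside. LGR5, CDH17, GPA33 and EPCAM were in the last, with none inside. The part of chromosome position in the calls on these genes was not tested.

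The surroundings of the 10 genes were mixed. In the 1 Mb centred on the gene start, GC content ran from 37.6% (LGR5) to 57.8% (MUC2) with a median of 46.1%, against 44.03% over all protein-coding genes. CDX1, VIL1 and MUC2 had 48.7%, 47.2% and 57.8%. Protein-coding gene starts in the same 1 Mb ran from 8 (CDX2) to 31 (CEACAM5), with a median of 12.5 against 13 over all genes, and the 3 genes inside 90m G1 regions had 17, 25 and 29. GC content and gene number were thus both above the medians of all genes for CDX1, VIL1 and MUC2, as they also were for CDH1 and CEACAM5, which lay outside 90m G1 regions.

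The median distance of the members was set beside that of all protein-coding genes. It was 1.88 Mb in HCT116 bulk cells, against 1.85 Mb over all genes. At 90m G1 it was 5.52 against 5.11 Mb and at 180m G1 2.68 against 2.71 Mb, both over genes with a region on their chromosome, which leaves out CEACAM5 and keeps 9 members and 18453 or 18232 genes. In G1 it was 3.34 against 2.46 Mb, in S 2.21 against 2.31 Mb and in G2 2.10 against 2.61 Mb. In K562 cells it was 1.33 against 1.55 Mb for cTSA-seq, and 0.0283 Mb against 0 for nonLAD. With other lists of asynchronous cells it was 3.34 against 2.32 Mb for 200000 HCT116 cells, 3.03 against 2.36 Mb for 1000000 HCT116 cells and 2.08 against 3.05 Mb for K562 TSA-seq. In the 7 lamina lists the medians of the members and of all genes thus differed by less than 1.5 times, while single members ranged from 0.384 to 25.4 Mb in bulk cells alone.

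Wider sets of intestinal genes, 79 in 6 lists, were placed the same way. In HCT116 bulk cells 3 of the 79 overlapped a region, all in whole: OLFM4, a crypt stem cell marker (chr13:53602948-53626192), SMOC2, another stem cell marker (chr6:168841831-169073984), and CTNNB1, which encodes beta-catenin (chr3:41236232-41301587). This is 3.80% of them, below the 12.4% of all genes. OLFM4 and SMOC2 were also inside regions at 180m G1, in G1, in S, in G2 and in K562 cTSA-seq, and CTNNB1 at 180m G1 and in K562 cTSA-seq. With 50000, 200000 or 1000000 cells OLFM4 was the only one of the 79 inside a region. OLFM4 and SMOC2 were the only 2 of the 10 stem cell and Wnt response genes inside a bulk region. The rest of that list lay outside, as did LGR5, which also marks stem cells and was the farthest member in bulk cells.

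At 90m G1, 12 of the 79 lay inside regions, or 15.2% against 17.7% of all genes. Of the 16 brush border and absorption genes 6 did: ALPI (intestinal alkaline phosphatase), CDHR2 and CDHR5 (cadherins that link microvilli), ESPN and EZR (espin and ezrin, of the microvillar actin core and its membrane anchor) and USH1C (a scaffold of the microvillar tip). None of these 6 overlapped bulk calls. Of the 10 stem cell and Wnt response genes, EPHB2 and EPHB3 (ephrin receptors that sort crypt cells) and SMOC2 did. Of the 13 goblet and secretory genes MUC5AC and CHGA (chromogranin A) did, and of the 14 transcription factors ASCL2. None of the 15 adhesion, junction and keratin genes and none of the 11 other CEACAM genes did. The CEACAM genes all lie on chromosome 19, which has no 90m G1 region, and MUC5AC, CDHR5 and ASCL2 share the region of MUC2, so these counts are not independent. All 6 brush border genes, ALPI, CDHR2, CDHR5, ESPN, EZR and USH1C, lay within 20 Mb of a chromosome end. Of all genes there, 51.2% (within 5 Mb) or 30.9% (5 to 20 Mb) overlapped a 90m G1 region. Distance to an end was not compared between the lists, and its part in their shares was not tested.

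In K562 cells, 10 of the 79 overlapped a cTSA-seq region, or 12.7% against 12.6% of all genes. They were named after their values were seen: the transcription factors ATOH1, HNF4G and SOX9, the stem cell genes OLFM4, PROM1 and SMOC2, the enterocyte hydrolases DPP4 and SI, the endocrine factor NEUROD1, and CTNNB1. Of these, 7 were outside the HCT116 bulk regions, and OLFM4, SMOC2 and CTNNB1 were inside them. The K562 TSA-seq list held 9 of the 79, of which ATOH1, HNF4G, DPP4, SI and NEUROD1 were shared with cTSA-seq. OLFM4, SMOC2, CTNNB1, PROM1 and SOX9 were outside it, so that the overlap in both lines rests on the cTSA-seq list, and AGR2, CLCA1, DSC2 and FABP2 were inside it. The nonLAD list held 39 of the 79, or 49.4% against 56.2%. For comparison, none of 12 erythroid genes overlapped a region in HCT116 bulk or K562 cTSA-seq, 1 (GFI1B) did at 90m G1, and 8 lay in the K562 nonLAD list.

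**Figure D4:**
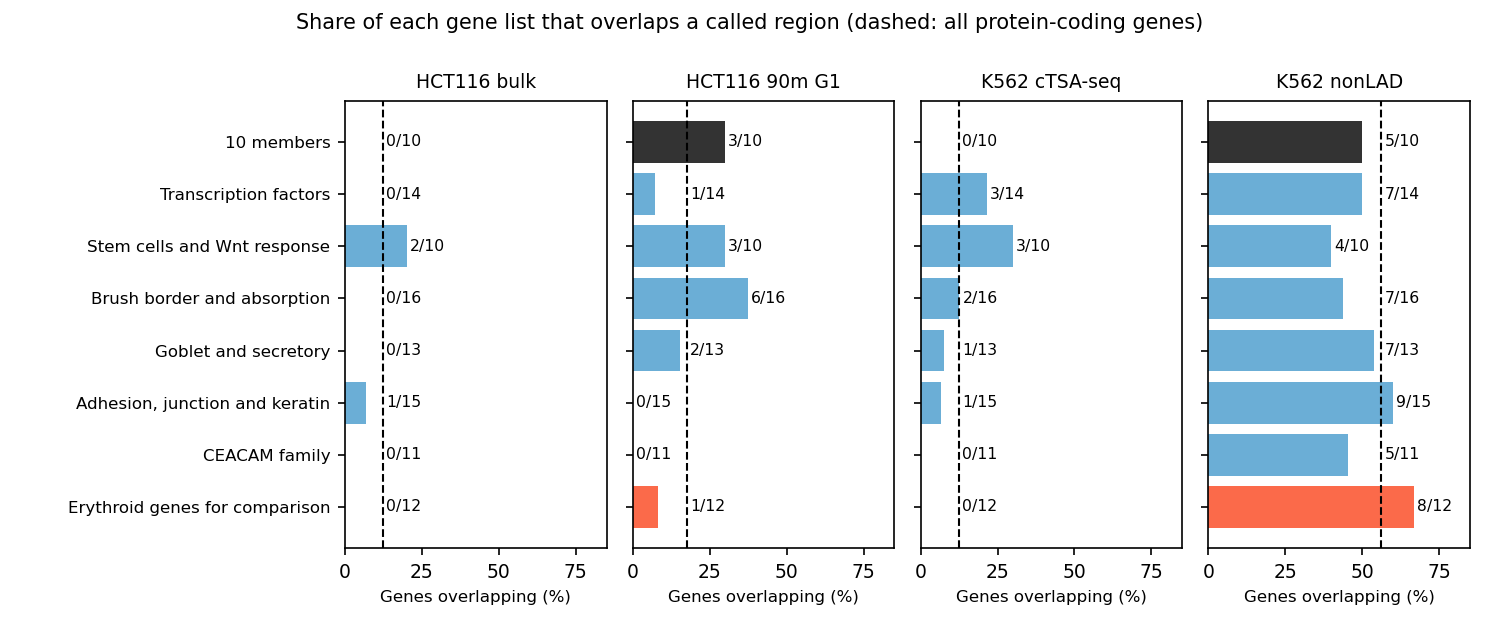
Percent of genes (x axis, from 0) that overlap a called region in 4 lists, for the 10 members (dark bar), 6 wider intestinal lists (blue) and erythroid genes (red), with the count beside each bar; the dashed line is the share of all protein-coding genes. In the HCT116 bulk panel the bars of the stem cell list (2 of 10) and the adhesion list (1 of 15) are the only ones above 0, and in the 90m G1 panel the brush border list has the highest share (6 of 16). The shares are not adjusted for distance to a chromosome end.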

How the data were processed

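Lamin-B1 cTSA-seq lists of HCT116 and K562 cells were used. The authors aligned reads to hg19 with Bowtie2 2.3.2, removed duplicates, counted reads per window with bedtools 2.26.0, scaled the libraries to a common size, and turned log2 ratios of pull-down to input into z-scores. A Hidden Markov Model with 3 states then gave the regions, and calls of replicates were intersected. Of their deposited lists 14 were used, each with the chromosome, start and end of regions in windows of 100 kb. The methods give this intersection for replicates in general, but unlike the other condition lists, those of 90m G1 and 180m G1 are not named as a consensus.

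Gene bodies came from GENCODE release 44 mapped to hg19. The overlap, distance and nearest region of every protein-coding gene were computed in Python 3.11.15 with numpy 2.4.6 and pandas, and the procedure was tested on 2000 simulated intervals, with 0 wrong. GC content was weighted from 100 kb windows, and gene numbers are gene starts within 500 kb of the start. Regions on the mitochondrial sequence and on an unplaced sequence were left out. The lists carry neither signal nor read count, so the depth and the precision of a border are unknown.

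No test was made: each condition has 1 merged list. The 10 genes and the wider lists were chosen with earlier results of these data known. Named from the wider lists were the genes inside regions of HCT116 bulk or 90m G1, up to 6 per list in order of symbol, and for each member inside a lamina region the 3 nearest protein-coding genes within that region.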

Additional observations from a re-analysis of the deposited data

How the results depend on the processing

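The counts of overlapping genes were recomputed with at least 50% or 80% of the gene body inside, with the gene start inside, within 100 kb, with regions of at least 200 kb only, with regions up to 100 kb apart joined, and with the other asynchronous HCT116 or K562 lists in their place; the medians were recomputed from the gene start, with larger regions and with joined regions, and, chosen after seeing the data, with those other lists. Where the reported count was 0, the stricter rules could only give 0 again. These were 50% or 80% of the gene body, the gene start inside, and regions of at least 200 kb. Where the count was 3 or 5, each gene lay whole inside a region larger than 200 kb, so these rules could not move it either. The K562 shared list is an intersection with the cTSA-seq list, so it could only give 0. K562 cTSA-seq had no region below 200 kb, so that rule changed neither its count nor its median. Such alternatives could not move and say nothing of stability. Of 88 alternatives, these included, 83 stayed within 1.5 times the reported value. The exceptions were the K562 nonLAD count within 100 kb, 8 in place of 5, the HCT116 median distance, 3.34 Mb with 200000 cells and 3.03 Mb with 1000000 cells in place of 1.88 Mb, and the K562 median, 2.08 Mb with the TSA-seq list as with the shared list in place of 1.33 Mb; the cause was not tested. Just within the limit, the 90m G1 median was 8.24 Mb with regions of at least 200 kb, in place of 5.52 Mb. The 5.52 Mb is the distance of GPA33 from a region of 0.1 Mb. No paired analysis was possible because each list was deposited merged over its replicates and no test was made, and for the same reason no replicate could be left out. Borders are known to 1 window of 100 kb, depth is unknown, and a region missing from a list may be one that failed in 1 replicate.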
